A study of Saccharum hybrid cultivar with 12 samples.

Results

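In developing stalk tissue of 3 sugarcane genotypes, 93 of 163054 unigenes met a rule for higher levels under ethephon in every genotype. Unigenes that were higher by less than its limits, given below, are not among them. A unigene is an assembled transcript sequence that stands in for a gene. The 93 members were chosen by CPM, the count of a unigene as a share of all counts in its library, scaled to a common library size. The lower of the 2 ethephon replicates had to reach 1 CPM in each genotype and, with 0.1 CPM added to both values, at least 1.5 times the higher of the 2 water replicates. Members were ranked by the smallest of their 3 ratios. One further unigene, c89405_g1, passed the same numbers and was left out because the study names it, as a methyltransferase. With water and ethephon exchanged, the same numbers were met by 21 unigenes.

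The plants were ROC22, a high-sugar commercial variety (HS), YT71-210, a medium-sugar genotype (MS), and GT86-887, a low-sugar genotype (LS), the latter pair not grown commercially. They were 8 months old, grew in field plots, and received a foliar spray of water (CK) or of ethephon diluted to an ethylene solution of 400 mg/L (T). Stalk tissue 20 cm above the node of the second youngest expanded leaf was taken 7 days later, and each of the 6 groups (HS_CK, HS_T, MS_CK, MS_T, LS_CK and LS_T) had 2 biological replicates, giving 12 libraries. Each genotype was 1 clonally propagated cultivar, so a difference between genotypes is a difference between these clones and not between classes of sugar content. As the tissue was bulk stalk, fewer cells of a type and less RNA per cell cannot be told apart. The files pair no unigene with a gene name, so the tissue label could not be checked against marker genes.

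Ethephon is taken up by the plant and breaks down to release ethylene, a gaseous hormone that is used on sugarcane as a ripener. In Arabidopsis, ethylene binding to receptors in the endoplasmic reticulum switches off a repressing kinase and stabilises transcription factors in the nucleus, which then switch on genes of the ethylene response factor (ERF) family and others further downstream. Genes for ethylene synthesis, for the receptors themselves and for cell wall and defence proteins are known targets in many plants. Which of these the 93 members encode is not stated in the sources used here, and they are described by their identifiers, levels and patterns.

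Library totals ran from 19765594 to 28747056 counts, and the replicates of each group differed by more than sampling noise. One library, LS_CK replicate 2, stood apart for the members. In 22 of the 93 its CPM (with 0.1 added) was over 2-fold above that of LS_CK replicate 1, and in 0 it was over 2-fold below, whereas 2.33% and 1.95% of all 54433 unigenes tested lay that far above and below. MS_T replicate 2 was over 2-fold above its partner in 15 members and that far below it in 2, against 5.24% and 1.75% of all unigenes tested. HS_T replicate 2 was over 2-fold lower in 10 members and higher in 0, against 3.55% and 2.96% of all unigenes tested. MS_CK replicate 2 was that far lower in 12 and higher in 5, against 4.28% and 3.03%. For HS_CK replicate 2 these were 11 lower and 5 higher, against 5.0% and 5.89%. LS_T replicate 2 was that far higher in 11 and lower in 5, against 3.18% and 6.7%. The rule takes the higher water replicate and the lower ethephon replicate. LS_CK replicate 2 was the higher one in 67 members and HS_T replicate 2 the lower one in 82, while in MS_T the lower replicate was replicate 1 in 71. The largest shifts in the number of unigenes that met the rule came from HS libraries, with 203 without HS_T replicate 2, 166 without HS_CK replicate 2 and 137 without HS_CK replicate 1. Without HS_T replicate 1 the number was 99. It was 118 without MS_T replicate 1, 100 without MS_T replicate 2 and 103 without LS_CK replicate 2.

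**Figure D1:**
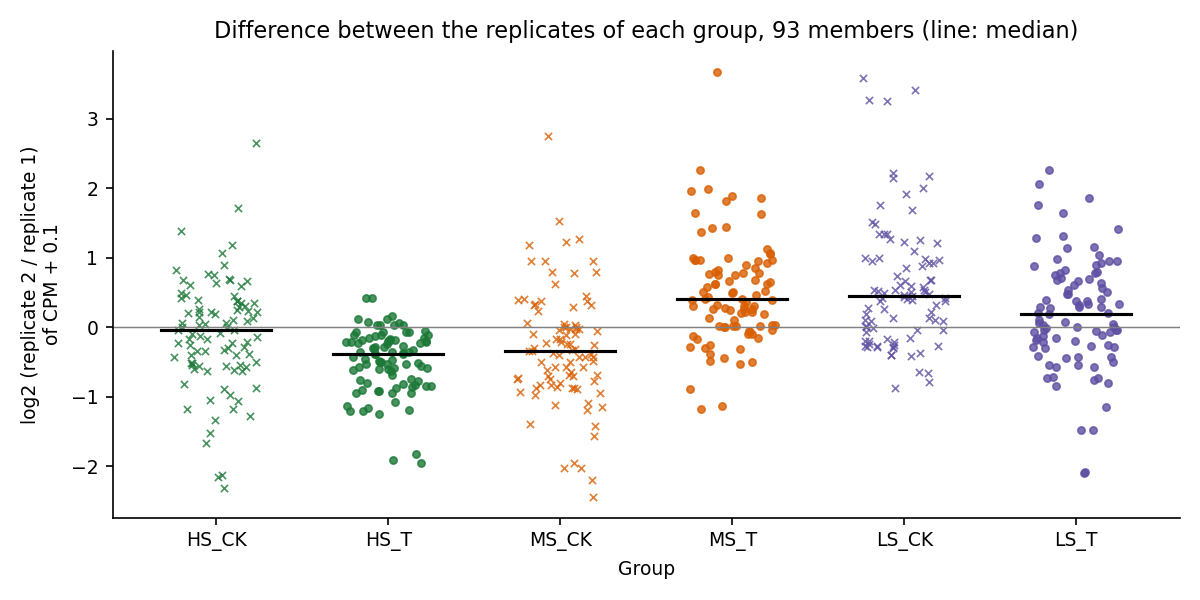
Log2 of replicate 2 over replicate 1, with 0.1 CPM added to both, for each of the 93 members (points) in the 6 groups, where crosses are water and circles ethephon groups and black lines are medians. The median was 0.45 in LS_CK and -0.04 in HS_CK, and in LS_CK no member lay over 2-fold below 0.

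The ratios chose the members and are given as a description. In HS the ratio of the lower ethephon to the higher water replicate had a median of 2.19 and ran from 1.5 to 483. In MS the median was 3.87, with values from 1.53 to 552, and in LS it was 3.26, with values from 1.56 to 21.4. HS thus held the smallest ratio of a member most often, for 50 members, against 34 in LS and 9 in MS. At least 10-fold ratios were present for 14 members in HS, 21 in MS and 12 in LS. Requiring them in all 3 genotypes left 6 members, while 46 reached 2 and 24 reached 3.

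**Figure D2:**
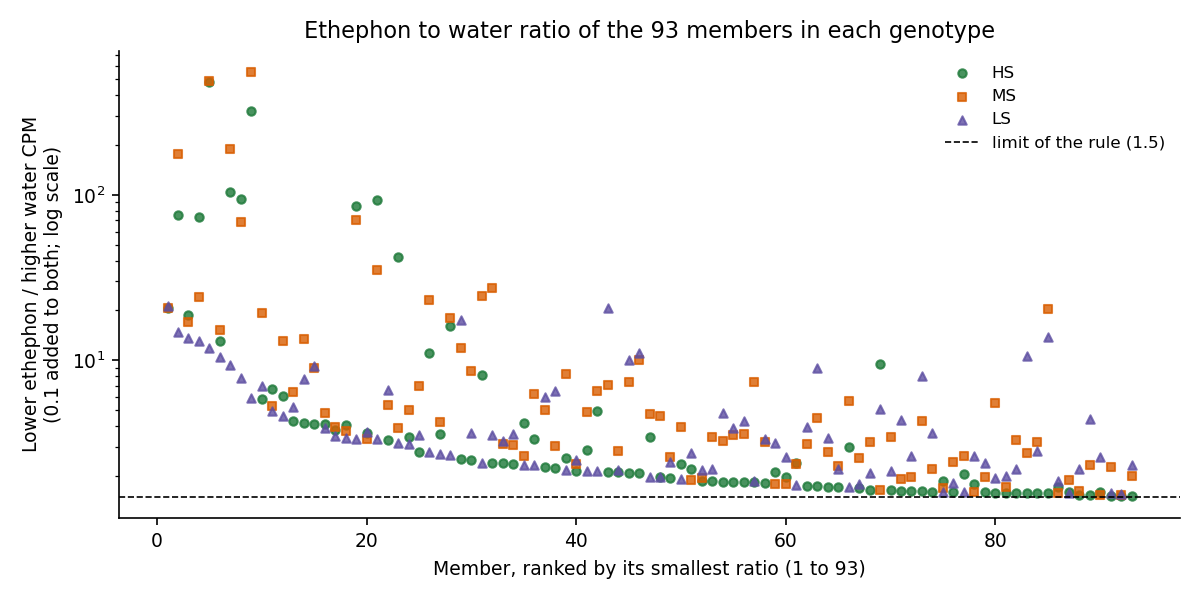
Ratio of the lower ethephon to the higher water CPM (0.1 added to both, log axis) of the 93 members in rank order, with HS as circles, MS as squares and LS as triangles. All points lie at or above the dashed limit of 1.5, and the largest LS ratio is 21.4 whereas HS and MS reach 483 and 552.

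The first-ranked member, c70685_g2, had nearly equal ratios in the 3 genotypes, with 20.8 in HS, 20.8 in MS and 21.4 in LS, each with 0.1 CPM added. Its fitted log2 fold changes were 5.3 ± 0.6 (SE) in HS, 6.1 ± 0.7 in MS and 6.9 ± 0.7 in LS. Its water counts were few, with 0 and 3 in LS. Its FPKM (fragments scaled to the length of the unigene and the depth of the library) was 0.29 and 0.47 in HS_CK and 16.7 and 12.9 in HS_T. In MS it was 0.21 and 0.10 under water and 8.23 and 15.4 under ethephon. In LS it was 0 and 0.22 under water and 7.83 and 17.5 under ethephon. The ethephon libraries of the 3 genotypes overlapped, and every one lay far above every water library. Another unigene of the same Trinity component, c70685_g1, held rank 3. Under water it had 0.40 and 0.14 FPKM in HS, 0.40 and 0 in MS, and 0.36 and 0.27 in LS. Under ethephon it had 14.7 and 13.1 in HS, 8.62 and 14.4 in MS, and 7.71 and 18.6 in LS. Unigenes of 1 component come from overlapping sequence and the aligner may divide reads between them, so these are not independent observations.

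The second rank was held by c95174_g1, a unigene at a trace level under water. Its FPKM was 0.45 and 0.27 in HS_CK, 0.16 and 0.08 in MS_CK, and 0.11 and 0.46 in LS_CK. Under ethephon it was 68.9 and 39.3 in HS_T, 41.9 and 164 in MS_T, and 34.5 and 7.96 in LS_T. No water library overlapped any ethephon library, but the ethephon replicates differed several-fold in MS and in LS. The fitted log2 fold change was 7.25 ± 0.93 (SE, n = 2 per group) in HS, 9.63 ± 1.09 in MS and 6.25 ± 0.95 in LS.

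A similar pattern was seen for c89666_g1, at rank 4. It had 0.09 and 0.04 FPKM in HS_CK, 0.04 and 0.06 in MS_CK, and 0.06 and 0.51 in LS_CK. With ethephon it had 45.4 and 12.5 in HS_T, 3.56 and 44.8 in MS_T, and 6.94 and 10.3 in LS_T. The MS_T replicates enclosed all other ethephon values except the higher one of HS_T. The low water values rest on few counts: 3 counts over both HS_CK libraries against 1436 in HS_T gave a ratio of 499, with an exact 95% counting interval of 170 to 2420. All such intervals and bounds cover counting error only.

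c75942_g1, at rank 5, had no count in either HS_CK library. Its FPKM was 252 and 134 in HS_T, 0.14 and 0 in MS_CK, and 453 and 199 in MS_T. Measured against a floor of 3 counts over the group, HS_T was at least 1060-fold higher than HS_CK. In LS the values were 0.25 and 4.58 under water and 87.8 and 57.6 under ethephon, the lowest of the ethephon groups. Against both LS_CK replicates its LS ratio was 11.9, and against LS_CK replicate 1 alone it was 113.

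At rank 6 was c87661_g4. It had 0.60 and 0.99 FPKM in HS_CK and 16.2 and 10.7 in HS_T. In MS the values were 0.98 and 2.35 under water and 29.6 and 75.1 under ethephon, and in LS 0.48 and 1.03 under water and 11.9 and 38.4 under ethephon. The highest value was in MS_T, and the LS_T replicates lay on either side of the lower MS_T replicate.

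c86136_g1, at rank 7, was among the most abundant members. It had 4.40 and 1.52 FPKM in HS_CK and 902 and 463 in HS_T. In MS it had 1.75 and 0.22 under water and 410 and 359 under ethephon. In LS it had 1.11 and 11.9 under water and 114 and 139 under ethephon. The LS_T libraries lay below all HS_T and MS_T libraries, and LS_CK replicate 2 above every other water library. Its LS ratio was 9.33 with both LS_CK replicates and 89.7 against replicate 1 alone.

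Both unigenes of component c76401 were members, ranked 8 and 9. c76401_g2 had 1.16 and 1.83 FPKM in HS_CK, 0 in both MS_CK libraries, and 2.85 and 48.4 in LS_CK. Its ethephon values were 1295 and 1015 in HS_T, 718 and 763 in MS_T, and 335 and 272 in LS_T. The ethephon libraries did not overlap between genotypes in FPKM, with HS_T highest and LS_T lowest, but none of the 3 comparisons between ethephon groups passed the threshold. MS_T was at least 800-fold higher than MS_CK against the floor of 3 counts. Its LS ratio of 5.89 became 70.7 when LS_CK replicate 1 alone was used, and the gap between its LS_CK replicates was the widest among the members.

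c76401_g1 had 1018 and 868 FPKM in HS_T, 281 and 260 in MS_T and 170 and 115 in LS_T. Of its comparisons between ethephon groups, that of HS_T with LS_T passed the threshold (log2 difference 2.72 ± 0.44, edgeR adjusted p = 0.0013), and those of MS_T with the other groups did not. Under water it had 5.58 and 0 in HS_CK, 0 in both MS_CK libraries, and 0 and 13.5 in LS_CK. These FPKM values rest on far fewer counts than their size might seem to show, 570 and 444 in HS_T, because the length by which the counts were divided was only about 24.8 bases for c76401_g1 and 76.7 bases for c76401_g2. The median of this effective length was 703 bases over the members and 798 over the unigenes tested that had a value.

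The last of the 10 first-ranked members, c91368_g1, was already well expressed under water. Its FPKM was 9.28 and 15.0 in HS_CK, 6.57 and 6.77 in MS_CK, and 11.8 and 11.9 in LS_CK. Under ethephon it was 129 and 71.3 in HS_T, 223 and 102 in MS_T, and 73.6 and 53.4 in LS_T. The ratio was 5.80 in HS, 19.3 in MS and 6.97 in LS.

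**Figure D3:**
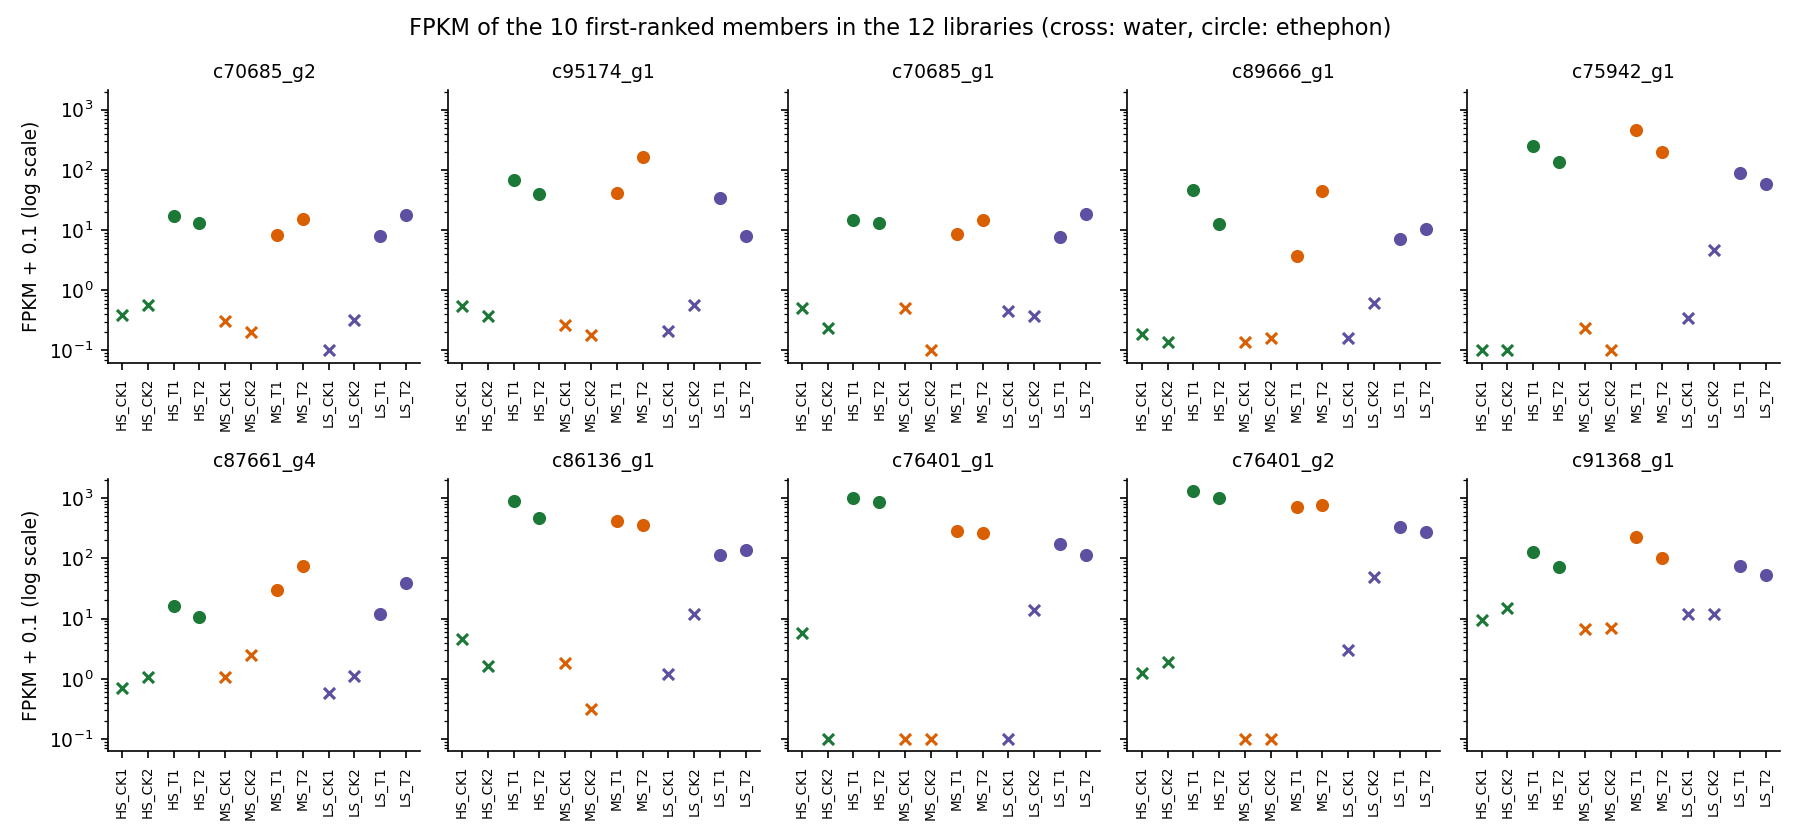
FPKM (0.1 added, log axis) of the 10 first-ranked members in each of the 12 libraries, with HS in green, MS in orange and LS in purple, crosses for water and circles for ethephon. In each panel all circles lie above all crosses of the same genotype, and in c86136_g1 and c76401_g2 the LS_CK replicate 2 cross lies above the other water libraries.

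Among the 93 members, 11 had a count of 0 in at least 1 water library, and 0 had no count in every water library. The mean FPKM over the 6 ethephon libraries was at least 100 in 12 members, at least 10 in 61 and under 10 in 32. Under water 24 members had a mean FPKM under 1. The set therefore held both unigenes near absence under water and unigenes that were abundant under either spray.

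The most abundant was c95444_g1, ranked 42. Its FPKM was 414 and 210 in HS_CK, 82.9 and 56.3 in MS_CK, and 166 and 452 in LS_CK. Under ethephon it was 2025 and 1976 in HS_T, 978 and 495 in MS_T, and 977 and 911 in LS_T. HS_T lay above all other libraries, while the second LS_CK replicate approached the lower MS_T replicate. The log2 difference between HS_T and MS_T was 1.53 ± 0.47 (SE), which did not pass the threshold (edgeR adjusted p = 0.0306).

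Next in mean ethephon FPKM, after c95444_g1, both c76401 unigenes and c86136_g1, was c90980_g1. It had 98.8 and 56.7 FPKM in HS_CK, 36.6 and 27.7 in MS_CK, and 32.8 and 34.9 in LS_CK. Under ethephon it had 181 and 156 in HS_T, 153 and 207 in MS_T, and 177 and 357 in LS_T. Here the genotypes overlapped under ethephon, and the water values of HS were the highest. Its effective length was 143 bases.

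Summed over the 93 members, the level was 756 and 558 CPM in HS_CK and 5168 and 3954 in HS_T. In MS it was 345 and 263 under water and 3015 and 3030 under ethephon, and in LS 457 and 819 under water and 2690 and 2817 under ethephon. Group means thus differed 6.94-fold in HS, 9.95-fold in MS and 4.32-fold in LS. c95444_g1 alone made up 16.3% to 51.7% of the sum, and without it the folds were 7.13, 9.64 and 5.15. The sum was lowest in MS under water and highest in HS under ethephon, with no overlap between HS_T and the other groups. That gap rested on c95444_g1: without it HS_T had 3255 and 2126 CPM and MS_T 2099 and 2537, which overlap. The median member was not highest in HS_T, with 7.80 and 5.90 CPM against 7.30 and 10.9 in MS_T and 8.24 and 10.7 in LS_T.

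**Figure D4:**
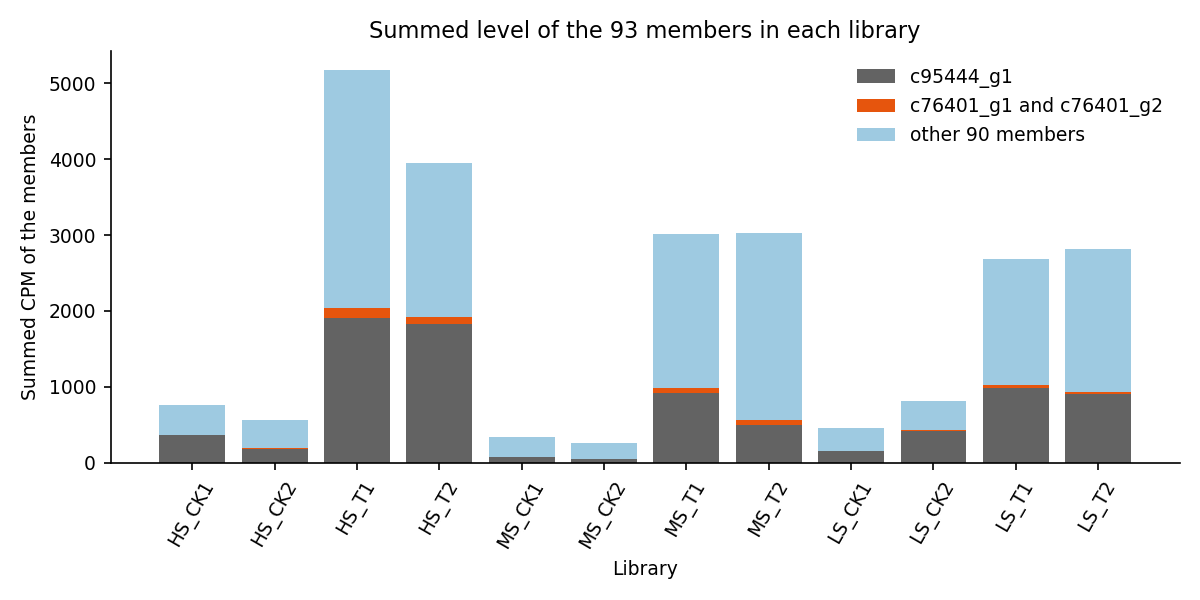
Summed CPM of the 93 members in each of the 12 libraries as bars from 0, split into c95444_g1, both unigenes of component c76401, and the other 90 members. Ethephon libraries stand between 2690 and 5168 CPM and water libraries between 263 and 819 CPM.

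Differences were tested with the quasi-likelihood test of edgeR on all 12 libraries. A unigene was called when its p-value, adjusted by the method of Benjamini and Hochberg over all unigenes tested, was under 0.005 and its fold change over 2. With 2 replicates in each group, every adjusted p rests on a spread that the model shares between groups and unigenes. All 93 members were among the 54433 unigenes tested. Between ethephon and water, 5 members were called in HS, 1 in MS and 45 in LS, all higher under ethephon. The share of all unigenes tested that was called higher was 0.011% in HS, 0.00184% in MS and 1.91% in LS. Because the members were chosen on these contrasts, nothing is read from these counts. The median log2 fold change of the members was 1.85 in HS (0.77 to 13.70), 2.61 in MS (0.64 to 13.28) and 2.47 in LS (0.90 to 6.86), and the largest fitted change of a member was in MS for 47, in LS for 39 and in HS for 7. For LS the count was 9 when LS_CK replicate 2 was left out, 6 when LS_CK replicate 1 was, and 27 when LS_T replicate 2 was. In HS the count was 2 without either HS_CK replicate and 2 without HS_T replicate 1. In MS leaving out either MS_CK replicate gave 0, leaving out MS_T replicate 1 gave 9, and leaving out the other MS_T replicate gave 2. Whether a member's difference was larger in one genotype than in another was not tested.

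One member was called in all 3 genotypes, c94165_g1, chosen for description after its values were seen. Under water it had 1.08 and 1.27 FPKM in HS, 2.36 and 2.80 in MS, and 4.64 and 10.6 in LS. Under ethephon it had 136 and 105 in HS, 80.3 and 96.6 in MS, and 57.0 and 30.9 in LS. The order of the genotypes under water was thus the opposite of that under ethephon. Under water HS was lower than LS by 2.46 ± 0.37 on the log2 scale (edgeR adjusted p = 0.00058), and under ethephon HS was higher than LS by 1.97 ± 0.29 (adjusted p = 0.00055).

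In c86476_g2, also chosen after its values were seen, HS changed its place relative to MS and LS. It had 3.88 and 4.56 FPKM in HS_CK, 20.4 and 12.4 in MS_CK, and 21.2 and 25.9 in LS_CK, so that HS was the lowest under water. Under ethephon it had 287 and 211 in HS_T, 81.0 and 146 in MS_T, and 139 and 84.1 in LS_T, so that HS was the highest. The difference of HS_T from MS_T did not pass the threshold (log2 1.16 ± 0.26, edgeR adjusted p = 0.0063). Nor did that between MS and LS under either spray. The log2 difference of HS from LS was -2.41 ± 0.30 under water (edgeR adjusted p = 0.00020) and 1.31 ± 0.26 under ethephon (adjusted p = 0.0031).

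The rule did not compare genotypes under 1 spray, but it used the same libraries, and a low water level in a genotype made its ratio easier to pass. Under water, 9 members were higher and 3 lower in HS_CK than in MS_CK, where 5.58% and 4.59% of all unigenes tested were. Between HS_CK and LS_CK 8 members were higher and 5 lower in HS_CK, with 6.41% and 8.94% in all unigenes. Between MS_CK and LS_CK 4 were higher and 8 lower in MS_CK, with 4.97% and 8.42% in all unigenes. The called shares of members, 12.9%, 14.0% and 12.9%, were thus near those of all unigenes tested (10.2%, 15.3% and 13.4%). Without MS_CK replicate 1 the first of these counts was 3 in place of 12, it was 5 without MS_CK replicate 2 and 7 without HS_CK replicate 2. As a description only, since these water values entered the rule, MS had the lowest mean of the 3 genotypes under water for 52 members, HS for 18 and LS for 23, while MS was the lowest for 31.4% of all unigenes tested. The median log2 difference between HS_CK and MS_CK was 0.84 over the members and 0 over all unigenes tested, and between MS_CK and LS_CK it was -0.72 over the members and -0.03 over all.

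In all, 38 members lay past the threshold in at least 1 of the 6 comparisons between genotypes, 16 of them under ethephon alone, 5 under water alone and 17 under both. Under ethephon the median log2 differences were closer to 0, at 0.20 for HS_T vs MS_T, -0.16 for HS_T vs LS_T and -0.31 for MS_T vs LS_T. In HS_T vs MS_T 4 members were higher and 1 lower, against 6.35% and 5.59% of all unigenes tested. In HS_T vs LS_T 10 were higher and 13 lower, together 24.7% of the members, against 6.31% and 8.16% of all unigenes, or 14.5% together. In MS_T vs LS_T 3 were higher and 16 lower, together 20.4%, against 5.54% and 9.39%, or 14.9%. The counts depended on single libraries. The count of 23 for HS_T vs LS_T was 6 and 8 without HS_T replicates 1 and 2, and 11 and 7 without LS_T replicates 1 and 2. The count of 19 for MS_T vs LS_T was 5 and 11 without MS_T replicates 1 and 2, and 7 without LS_T replicate 2. The count of 5 for HS_T vs MS_T was 2 and 3 without MS_T replicates 1 and 2, and 3 without HS_T replicate 1. The rule itself asks for at least 1 CPM in every ethephon library, whereas the unigenes tested also include some that are nearly absent from a genotype, so the members and the background differ in level.

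**Figure D5:**
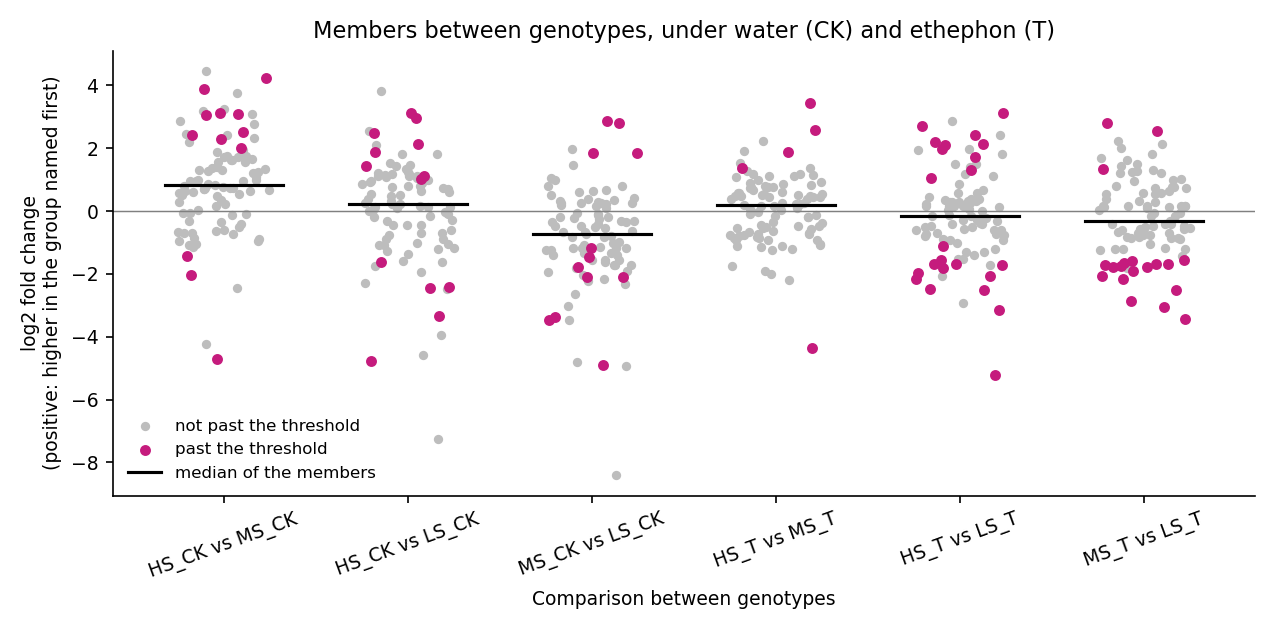
Log2 fold change of the 93 members (points) in the 6 comparisons between genotypes, with positive values where the first-named group was higher, members past the threshold in magenta, the others in grey and the median as a line. The median is 0.84 for HS_CK vs MS_CK and -0.72 for MS_CK vs LS_CK, and lies between -0.31 and 0.20 in the 3 comparisons under ethephon.

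Some members kept a difference between genotypes under both sprays. One was c77347_g1, the single member that was lower in HS_T than in both other ethephon groups. In HS it had 0.25 and 0.22 FPKM under water and 0.72 and 0.61 under ethephon. In MS it had 6.73 and 5.84, then 11.98 and 13.63, and in LS 7.44 and 6.76, then 20.0 and 24.4. HS lay below LS by a log2 difference of -4.77 ± 0.23 under water and -5.20 ± 0.21 under ethephon (edgeR adjusted p = 7.7e-07 and 2.6e-07). The HS level after ethephon therefore stayed far below the water level of the other 2 genotypes.

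MS_T was lower than both other ethephon groups for 4 members and higher for 0. In c83135_g2 the FPKM of HS was 11.3 and 13.7 under water and 26.5 and 22.6 under ethephon. In MS it was 0.99 and 0.82, then 2.43 and 2.11, and in LS 2.53 and 4.18, then 15.0 and 18.3. MS_T was thus near the lower LS_CK replicate and far below HS_CK. HS_T was higher than MS_T by a log2 difference of 3.44 ± 0.31 (edgeR adjusted p = 3.1e-05), and MS_T differed from LS_T by -2.88 ± 0.30 (adjusted p = 7.2e-05). In c77833_g1 MS had 0.25 and 0.55 FPKM under water and 3.09 and 2.86 under ethephon. HS had 2.45 and 4.36 under water and 16.7 and 16.5 under ethephon, and LS had 1.38 and 2.87, then 8.01 and 12.6. Its log2 difference between HS_T and MS_T was 2.58 ± 0.40 (edgeR adjusted p = 0.00089) and that between MS_T and LS_T was -1.89 ± 0.40 (adjusted p = 0.0041).

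LS_T was higher than both other ethephon groups for 6 members. The first of them was c101861_g1, with 8.81 and 8.09 FPKM in LS_T against 1.71 and 1.64 in HS_T and 0.72 and 1.69 in MS_T. Under water it had 1.99 and 2.12 in LS_CK, 0.87 and 0.57 in HS_CK and 0.22 in both MS_CK libraries. The log2 difference of HS_T from LS_T was -2.50 ± 0.33 (edgeR adjusted p = 0.00029), and that of MS_T from LS_T was -3.04 ± 0.34 (adjusted p = 9.6e-05). c83383_g1 was likewise highest in LS, with 3.04 and 3.99 FPKM in LS_CK and 8.81 and 12.4 in LS_T. In HS it had 0.34 and 0.26 under water and 0.98 and 1.18 under ethephon, and in MS 0.11 and 0.13, then 1.58 and 3.41, so that both LS_CK libraries lay above HS_T. Its log2 difference of HS_T from LS_T was -3.14 ± 0.35 (edgeR adjusted p = 0.00010), and that of MS_T from LS_T was -2.07 ± 0.32 (adjusted p = 0.00070).

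LS_T was lower than both other ethephon groups for 3 members, c94165_g1 among them. c78706_g2 had 89.3 and 58.8 FPKM in HS_T, 106 and 151 in MS_T and 20.7 and 15.3 in LS_T, and under water 8.69 and 5.52 in HS_CK, 19.5 and 20.1 in MS_CK and 2.98 and 2.89 in LS_CK. LS was the lowest and MS the highest under either spray, with log2 differences between MS and LS of 2.88 ± 0.27 under water and 2.80 ± 0.24 under ethephon (edgeR adjusted p = 4.1e-05 and 2.2e-05). c92252_g1 followed the same order. Under water it had 27.6 and 11.5 FPKM in HS, 39.3 and 38.7 in MS, and 5.28 and 6.05 in LS. Under ethephon it had 181 and 118 in HS, 262 and 317 in MS, and 56.5 and 36.3 in LS. These FPKM values rest on few counts, 30 and 12 in HS_CK and 6 and 7 in LS_CK, as its effective length was only 48.8 bases. The difference between MS and LS was 2.79 ± 0.41 under water and 2.55 ± 0.30 under ethephon (edgeR adjusted p = 0.00059 and 0.00014). HS_T was higher than both other ethephon groups for 0 members by this threshold. The share of all unigenes tested that lay past the threshold in both comparisons is not given here. The counts of members highest or lowest in a genotype are therefore a description only.

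In 11 members, both c76401 unigenes among them, LS_CK replicate 2 was over 3-fold above replicate 1. Of these 11, 10 had a fitted level in HS_T above that in LS_T, and 3 were called higher in HS_T, against 6.31% of all unigenes tested. Of the other 82 members, 34 had a fitted level in HS_T above that in LS_T. The 11 were set apart by LS_CK values that the rule also used, and members are not independent of each other. These counts are therefore a description only, and the difference between these sets of members was not tested.

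The 93 members came from 88 Trinity components, and 5 components held 2 members each. In component c93865, c93865_g2 and c93865_g3 were members and c93865_g1 was not. Under water c93865_g2 had 3.17 and 2.95 FPKM in HS, 1.34 and 0.70 in MS, and 5.84 and 4.72 in LS, and under ethephon 11.03 and 8.28 in HS, 5.14 and 3.33 in MS, and 10.9 and 18.4 in LS. c93865_g3 had water values of 6.25 and 3.87 in HS, 1.20 and 2.22 in MS, and 6.88 and 7.70 in LS, and ethephon values of 11.8 and 9.46, 6.19 and 4.48, and 12.1 and 21.1 in the same order. By contrast, c93865_g1 ran from 29.8 to 47.1 FPKM over all 12 libraries, with overlap between water and ethephon in each genotype.

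Unigenes that shared a component with a member without being members numbered 111, of which 78 were tested. In LS_T vs LS_CK 5 of them were called higher and 0 lower, or 6.41%, beside 1.91% called higher of all unigenes tested. They were c81620_g2, c84977_g2, c90980_g2, c95569_g3 and c99418_g2, named after their values were seen. c84977_g2 had 2.21 and 3.16 FPKM in LS_CK and 17.6 and 31.6 in LS_T, a log2 difference of 3.18 ± 0.40 (edgeR adjusted p = 0.0011). The count was 0 without either LS_CK replicate and 3 without LS_T replicate 1. In HS and in MS 0 were called by edgeR, while 21 and 28 were higher at an unadjusted p under 0.05, or 26.9% and 35.9% beside 2.24% and 6.48% of all unigenes tested, and 1 and 2 were lower. DESeq2 called 2 and 6 higher there, and limma 0. In LS 31 were higher at an unadjusted edgeR p under 0.05, or 39.7% beside 12.1% of all unigenes tested, and 9 were lower. DESeq2 called 13 higher and 1 lower in LS, and limma 6 higher and 2 lower. Partners can share reads with the member, and the part of shared reads in these values was not tested.

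For orientation among genes of known function, 23 unigenes with an annotation in the study, in 5 lists (sucrose cleavage, sucrose synthesis with sucrose synthase, ATPases, pectin enzymes and regulators), were read by the same numbers. Of all 163054 unigenes, 94 met the numbers of the rule, those the study names included. None of the 23 did, which at so small a share is not read as a result. The study named these unigenes from the same libraries. It reports the 4 ATPases as induced by ethylene, and the sucrose phosphatase c91176_g1 as influenced by it in LS. The counts that follow are therefore a description only, and the shares of all unigenes beside them are no test of these lists. In LS 4 were called higher under ethephon and 0 lower, 3 of the 4 ATPases and 1 of the 5 unigenes of sucrose synthesis, where 1.91% of all unigenes tested were called higher, and in HS and MS 0 were called in either direction by edgeR. At an unadjusted p under 0.05, 5 of the 23 were higher and 1 lower in HS, 7 higher and 3 lower in MS, and 12 higher and 3 lower in LS, where 2.24%, 6.48% and 12.1% of all unigenes tested were higher. DESeq2 called 1 higher in each of HS and MS, and limma called 0 there. The unigene of sucrose synthesis was c91176_g1, sucrose phosphatase, which releases sucrose from sucrose phosphate in the last step of its synthesis, with a log2 difference of 1.51 ± 0.22 in LS (edgeR adjusted p = 0.0019). The ATPase c101111_g2 had ratios of 1.80 in HS, 1.63 in MS and 3.15 in LS, all over the limit of 1.5, but its lowest ethephon level was 0.37 CPM. The ERF c81582_g1, of the family that ethylene signalling is known to switch on, did not pass the threshold in any genotype. Its log2 fold changes were -0.42 ± 0.21 in HS, 0.14 ± 0.21 in MS and -0.47 ± 0.23 in LS. By qRT-PCR, however, the study reports a rise of this transcript after ethylene in every genotype. It also describes a larger relative increase of ERFs in LS than in HS. The cause of the difference from the qRT-PCR result was not tested. No other ERF was among the 23 unigenes, so nothing is read about the family.

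At the edge of the rule, c78354_g5 and c64654_g1 were the members with the smallest ratios, 1.508 and 1.504. Both had their smallest ratio in HS, with 11.8 and 9.26 CPM in HS_CK and 17.8 and 18.2 in HS_T for c78354_g5. The nearest unigenes outside were c84382_g1 and c77795_g1, at 1.498 and 1.496. c84382_g1 missed through MS, where 31.0 and 15.9 CPM under water stood against 46.5 and 114 under ethephon, although its LS ratio was 13.3. The members just inside and the unigenes just outside thus differed little, and membership near the limit depends on single replicates.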

How the data were processed

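Per the methods of the study, the authors removed adapters and reads with a quality under 30 or a length under 50 bp, assembled the rest with Trinity, kept the longest transcript of each subcomponent as unigene, and aligned reads to it with RSEM. The deposited expected counts are RSEM estimates without scaling between libraries. The deposited FPKM values were made by the authors from these counts, unigene length and depth. Technical replicates had been merged before deposit.

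Expected counts were rounded (0.89% to 1.2% of the values in a library were not whole) and tested with R 4.3.3 and edgeR 4.0.16: filterByExpr with a minimum count of 10, TMM factors (0.919 to 1.09), glmQLFit and glmQLFTest on a model of 6 group means without a block. Its biological coefficient of variation was 0.207, at 6 residual degrees of freedom. DESeq2 1.42.0 and limma 3.58.1 (on log2(FPKM + 1)) served as alternatives, beside DESeq2 size factors, every unigene with at least 1 count, a looser threshold, only the 4 libraries compared, the replicate number as a block, and leaving out 1 library at a time. For the rule, scaling, pseudocount, level, ratio, unit, component sums and group means were varied. The scripts were first tested on simulated data. At library totals of 19765594 to 28747056 counts, a unigene near the filter is limited by its few counts.

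Named are the 10 members with the largest smallest ratio, the 5 with the highest mean ethephon FPKM, up to 2 per genotype that were highest or lowest there under ethephon past the threshold in both comparisons, the 2 on either side of the limit, and 3 components with 2 members each. The members, lists and tests were chosen with earlier results of these data known. The 80 unigenes that the study names were left out of the members. Effective length is the count divided by FPKM and library total, over libraries with at least 20 counts and 0.5 FPKM. qRT-PCR, sucrose and annotation results were not analysed here, and no sequences are printed.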

Additional observations from a re-analysis of the deposited data

How the results depend on the processing

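The rule was met by 93 unigenes, by 101 and 102 with TMM and DESeq2 scaling, 69 with a pseudocount of 1 CPM, 116 with FPKM and 66 with counts summed per component. It was met by 38 with ethephon CPM of at least 5, 46 with a ratio of at least 2, 419 with group means, and 95 to 203 with 1 library left out, which makes the rule easier to meet. TMM, DESeq2 scaling, FPKM and the pseudocount of 1 kept 91, 91, 82 and 69 of the 93 members, and 63 held under all 4.

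Counts of called members depended on the test. With every unigene of at least 1 count in the fit they were 66, 85 and 90 for ethephon against water in HS, MS and LS, 35, 36 and 36 for HS_CK vs MS_CK, HS_CK vs LS_CK and MS_CK vs LS_CK, and 26, 42 and 41 for HS_T vs MS_T, HS_T vs LS_T and MS_T vs LS_T. In the same order, an adjusted p under 0.05 alone gave 14, 67 and 88, then 29, 32 and 34, then 26, 36 and 38. The DESeq2 Wald test gave 29, 70 and 71 for ethephon, 20 for HS_CK vs MS_CK, 20 for MS_CK vs LS_CK and 8 for HS_T vs MS_T. Only the 4 libraries compared gave 0 in HS and 37 in MS, 6 for HS_CK vs MS_CK and 29 for MS_T vs LS_T. DESeq2 size factors gave 4 in MS, and limma 6 in MS and 15 for HS_T vs LS_T. Partners called higher in LS were 25 with every unigene of at least 1 count and 20 with an adjusted p under 0.05. They were 13 with DESeq2 and 2 with only the 4 libraries. The cause of these differences was not tested. Called shares of all unigenes are given for the main fit only. Counts under other settings, or with 1 library left out, are therefore not read as results about the members or partners.

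Leaving out 1 library gave 2 to 4 members for ethephon in HS, 0 to 9 in MS and 6 to 34 in LS. It gave 3 to 8 for HS_CK vs MS_CK, 9 to 11 for HS_CK vs LS_CK, 8 to 11 for MS_CK vs LS_CK, 2 to 5 for HS_T vs MS_T, 6 to 11 for HS_T vs LS_T, 5 to 19 for MS_T vs LS_T, and 0 to 4 partners in LS. Each of these fits has 1 sample fewer, and the lone library is assumed to vary like the other groups.

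Replicate numbers were not taken to pair the samples, since the labels give them no shared source and the deviations of same-numbered libraries correlated from -0.168 (MS_T and LS_T) to 0.375 (HS_CK and MS_CK). HS_CK, HS_T and MS_CK correlated with each other at 0.239 to 0.375. With the replicate block, MS_T vs MS_CK had 18 called members in place of 1, and the other counts stayed within 1.5 times the values without it. Crossing the MS_T numbers, added after seeing the data, gave 22 for MS_T vs MS_CK and 22 for MS_T vs LS_T.

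Of 1023 values of the named unigenes under alternatives, 811 kept direction and side of the threshold, 141 passed it newly, 66 lost it and 5 changed sign. The 5 belonged to c93865_g1, which is not a member and was not called: its log2 fold change was 0.15 in HS without HS_CK replicate 2, -0.09 in MS without MS_CK replicate 1, -0.36 in MS without MS_T replicate 1, -0.0601 in LS with limma and -0.0576 in LS without LS_T replicate 2. Over all libraries left out in turn it ran from -0.30 to 0.15 in HS, -0.36 to 0.38 in MS and -0.0576 to 0.24 in LS.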
